A study of Mus musculus with 24 samples.

Results

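Dorsal roots of newborn mice (P0) were compared with dorsal roots of mice aged 1 week (1 W). The comparison used 6 of the 24 arrays of the series, the 3 labelled afferent nerve (AN) fibres at P0 and the 3 labelled AN fibres at 1 W, and the labels alone chose them. The series holds 8 groups of 3 arrays, AN fibres from the dorsal root and efferent nerve (EN) fibres from the ventral root, each at 4 ages that run from P0 and 1 W on to 3 W and 5 W. All animals were C57BL/6 mice of both sexes, and the labels name no altered gene and no agent. Fibres belonging to segments L4-L6 were cut out and combined in 8 tubes (1 for each root and age), and 9 animals were used per time point, so animals were pooled. How animals were divided among the 3 arrays of a group is not given in the sources used here although 3 independent experiments per group are stated, and p-values measure the spread between these arrays, which may be partly technical.

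The dorsal root carries the central axons of sensory neurons, whose cell bodies lie in the dorsal root ganglion, and these axons are ensheathed by Schwann cells. Around birth a Schwann cell that has paired with a large axon leaves the cell cycle and, under the transcription factors Sox10, Pou3f1 and Egr2, wraps the axon in compact myelin. Myelin is mostly lipid, rich in cholesterol and galactolipids, and the lipid is largely made inside the Schwann cell. A root also holds fibroblasts, blood vessels and macrophages, and at its spinal end the myelin passes from Schwann cells to oligodendrocytes.

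Every value below is a log2 signal as normalised by the authors, and differences are 1 W minus P0 on that log2 scale. A probe was tested if its spot was well above background on all 3 arrays of either age. This left 33442 of 56605 gene probes, which carry 22124 gene names. A probe was called when its limma adjusted p was below 0.05 and its fold was over 2, and "rose" and "fell" are used of called probes alone. In all, 3006 probes were called, which is 8.99% of those tested. Of these, 1635 rose and 1371 fell. The dorsal root changed by over 4-fold at 337 probes that rose and 188 that fell, and by over 8-fold at 83 and 57. In all 3006 the 3 arrays of one age lay clear of the 3 of the other, as they did in 43.0% of all tested probes. Where a gene has several probes, it is read from its tested probe of highest mean signal. On that reading 5.14% of gene names were called higher at 1 W and 3.59% lower, and the median change over all gene names was 0.03.

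The arrays of an age resembled each other more closely than those of the other age, with correlations over tested probes of 0.982 to 0.984 within P0, 0.985 to 0.991 within 1 W and 0.950 to 0.971 between ages. All 8 Schwann cell markers and 13 of 14 sensory neuron markers were measurable. So were all 12 skeletal muscle, all 8 adipocyte, 7 of 10 cartilage and bone and all 8 spinal cord neuron markers. Muscle markers were highest on P0 replicate 1, adipocyte markers on P0 replicate 3, and liver plasma protein transcripts on P0 replicate 2. In tissue RNA of this kind, fewer cells of a type and less RNA per cell cannot be told apart.

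Genes of peripheral myelin rose. All 22 listed myelin proteins were higher at 1 W, 15 of them rose, and their median change was 1.57. Drp2, a dystrophin-related protein that builds the appositions of the myelin sheath with periaxin, read 10.03, 8.89 and 9.37 on the P0 arrays and 13.61, 13.76 and 13.20 at 1 W. All 1 W arrays were at least 3 log2 units above all P0 arrays, and the fitted difference was 4.10 (SE 0.31, adjusted p = 0.00148, 17.1-fold). All 4 Drp2 probes rose.

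Mbp, which compacts the cytoplasmic face of myelin, read 12.96, 12.66 and 13.42 at P0 and 16.48, 16.39 and 15.38 at 1 W, a difference of 3.07 (SE 0.34, adjusted p = 0.00332). Its 1 W replicate 3 was the lowest of the 1 W arrays and still lay above every P0 array. Gjb1, the connexin of the channels that cross Schwann cell myelin, read 12.40, 10.92 and 11.83 and then 14.38, 14.44 and 13.77, a difference of 2.48 (SE 0.39, adjusted p = 0.00854). P0 replicate 2 was the lowest array for Gjb1, as it was at P0 for 18 of the 22 myelin genes. Other risers were Ncmap at 2.72, the lipid-binding Pmp2 at 2.70, the proteolipid Pllp at 2.66, the tetraspanin Cd9 at 2.34, the mesaxon claudin Cldn19 at 1.84, Cnp at 1.62, the adherens junction cadherin Cdh1 at 1.53, the adhesion protein Mag at 1.44 and Mal at 1.37. Not all probes of these genes were called. Another probe of Cnp differed by 0.77 (adjusted p = 0.0997) and another of Mag by 0.66 (adjusted p = 0.197). For Mbp another probe rose by 2.60 and a further probe differed by 0.33 (adjusted p = 0.199). Other probes of Ncmap and Pllp rose, by 2.67 and 2.29.

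For Pmp22 and Prx the brightest probe was not called although another probe of the gene was. Pmp22, whose dosage is altered in inherited neuropathy, differed by 0.84 on its brightest probe (adjusted p = 0.0294), and its other probe rose 5.55-fold. Prx, the periaxin that binds Drp2, differed by 0.82 (adjusted p = 0.0138), and its other probe rose 3.14-fold. No spot was marked as saturated.

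**Figure D1:**
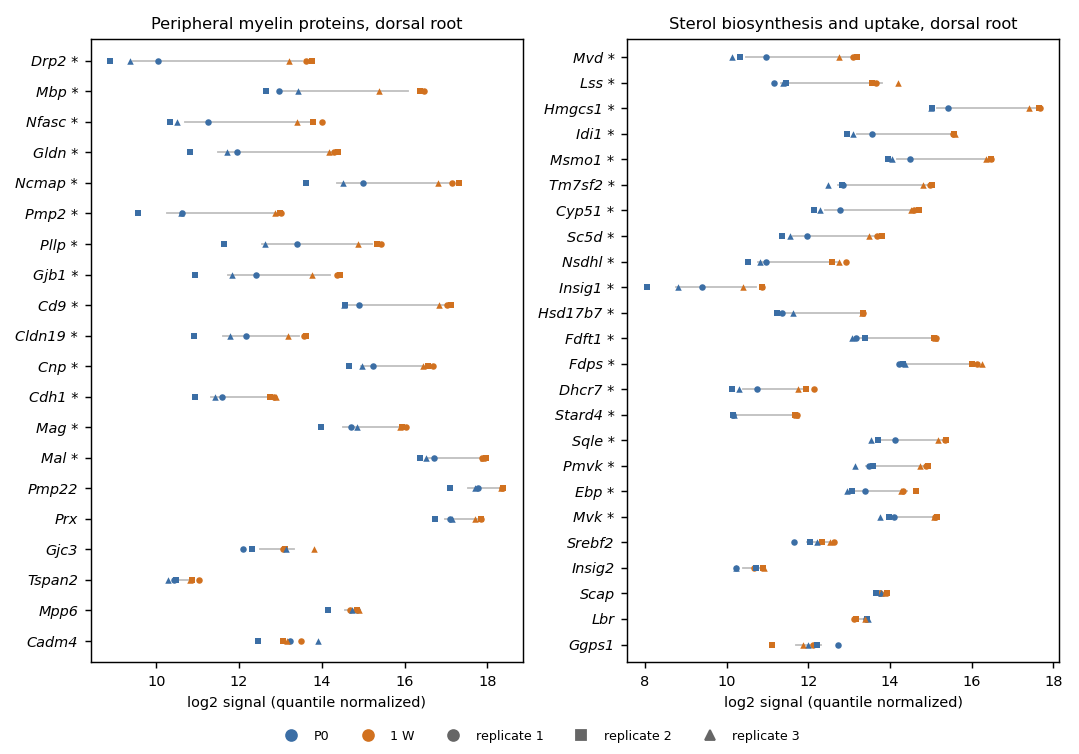
Log2 signal (horizontal axes) of measured myelin and sterol genes (1 row each) on each dorsal root array, blue at P0 and orange at 1 W, with the marker shape giving the replicate and an asterisk marking called genes. The 1 W arrays lay 3 or more log2 units above the P0 arrays for Drp2, while the brightest Prx probe differed by 0.82.

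Few of the transcription factors and receptors that steer myelination were called. Of 19 measured regulators, 2 rose, none fell and the median change was 0.36. The list includes Taz, which on this array is the symbol of tafazzin, and the Hippo coactivator Wwtr1 was not listed. Tead4, a partner of the Hippo pathway coactivators, read 6.24, 6.24 and 6.45 at P0 and 8.13, 8.44 and 8.01 at 1 W (difference 1.89, SE 0.16, adjusted p = 0.00174). Nab2, a cofactor of the Egr factors, read 11.80, 11.66 and 11.53 and then 13.31, 13.34 and 12.95, a difference of 1.53. Both changes left the ages without overlap.

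Egr2, the factor required for compact myelin, differed by 0.88 (15.05, 14.41 and 14.70 at P0, 15.56, 15.61 and 15.63 at 1 W, adjusted p = 0.0189) and stayed under the fold limit. Sox10 differed by 0.65 (adjusted p = 0.022), Pou3f1 by 0.73 (adjusted p = 0.144) and the secreted Lgi4 by 0.18 (adjusted p = 0.375). S100b, a calcium-binding protein of Schwann cells, read 13.55, 13.52 and 13.45 at P0 and 15.47, 15.64 and 15.20 at 1 W, a rise of 1.93 (SE 0.15, adjusted p = 0.00154). The mean of the 8 Schwann cell markers was 13.5 to 13.8 at P0 and 14.2 to 14.3 at 1 W, and 2 of the 8 rose, S100b among them.

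Genes of the immature Schwann cell were mostly not called. Of 20 measured, 2 fell, none rose, and the median change was −0.27. Ncam1, a cell adhesion molecule kept by non-myelinating Schwann cells, read 14.35, 14.50 and 14.44 at P0 and 13.06, 13.06 and 13.24 at 1 W, and fell by 1.31 on the log2 scale (SE 0.12, adjusted p = 0.00236). Of its 5 tested probes, 2 were called and the other 3 differed by −0.87, −0.88 and −0.96. Tfap2a, a factor of Schwann cell precursors, fell by 1.26 (adjusted p = 0.00341). A relative of it, Tfap2b, was well above background on all P0 arrays and on no 1 W array, at least 4.85-fold lower at 1 W, a bound set by the lowest signal well above background.

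Ngfr, the p75 neurotrophin receptor, read 12.88, 14.51 and 13.17 at P0 and 13.95, 14.03 and 14.47 at 1 W, with overlap. Sostdc1 differed by −0.19 (adjusted p = 0.373). Among genes named after their values were seen, Jun, a driver of the repair state, differed by 0.05, and Sox2 by −0.15. Of the boundary cap markers, genes of the neural crest cells that sit where roots meet the spinal cord, 2 of 6 fell. Prss56, a protease of those cells, read 9.76, 10.97 and 10.07 and then 6.99, 6.26 and 7.40, and fell by 3.39 on the log2 scale (SE 0.40, adjusted p = 0.0038). Wif1, an inhibitor of Wnt ligands, fell by 1.72, and Egr2 also stands in that list.

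At nodes and paranodes, the gaps in myelin and their flanks, 4 of 17 measured genes rose, none fell and the median change was 0.24. Nfasc, the neurofascin of nodes and paranodes, read 11.24, 10.32 and 10.50 at P0 and 13.39 to 14 at 1 W, a rise of 3.04 (SE 0.28, adjusted p = 0.00229). Another Nfasc probe rose by 3.01, and further probes differed by 0.61 and 0.48 without a call. Gldn, the gliomedin that clusters nodal sodium channels, rose by 2.80. Both also stand in the myelin list. The juxtaparanodal potassium channels rose too, Kcna2 by 1.64 (8.77, 9.00 and 9.25 to 11.03, 10.59 and 10.34) and Kcna1 by 1.34. The ezrin-radixin-moesin proteins of Schwann cell microvilli were not called, Msn at 0.51 and Ezr at −0.55, nor was the scaffold Ank3 at −0.06.

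Most enzymes of sterol synthesis rose. Of 28 measured genes of sterol synthesis and uptake, 22 rose, none fell, and the median change was 1.65. Hmgcs1, which makes HMG-CoA at the entry to the pathway, read 15.41, 15.04 and 14.99 at P0 and 17.67, 17.64 and 17.41 at 1 W, a rise of 2.42 (SE 0.16, adjusted p = 0.00135).

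The isoprenoid steps followed, with Mvk at 1.17, Pmvk at 1.43, Mvd at 2.54, Idi1 at 2.37 and Fdps at 1.83. In the first sterol steps, squalene synthase Fdft1 rose by 1.90, the epoxidase Sqle by 1.51 and lanosterol synthase Lss by 2.47. Lss read 11.15, 11.45 and 11.38 at P0 and 13.65, 13.55 and 14.19 at 1 W, and all 3 of its probes rose. The late steps rose as well, from Cyp51 at 2.21, Tm7sf2 at 2.22, Msmo1 at 2.27 and Nsdhl at 1.98 to Dhcr7 at 1.54. The feedback protein Insig1 rose by 1.95. The regulators Srebf2 (0.53, adjusted p = 0.082) and Scap (0.13, adjusted p = 0.473) were not called.

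The promoters of the sterol genes are shown because 22 of the genes rose. Sequences are from RefSeq on GRCm38.p6, 250 bases before to 50 after each start, and 20 of the 28 genes were matched. The stretches below are 120 bases each, printed along the strand of the gene. Capitals mark CCAAT on either strand (ATTGG when reversed), the box bound by NF-Y, and TCACNCCAC, a form of the sterol regulatory element, whose letters do not overlap the box in these stretches.
Hmgcs1, chr13:119690154-119690273, plus strand: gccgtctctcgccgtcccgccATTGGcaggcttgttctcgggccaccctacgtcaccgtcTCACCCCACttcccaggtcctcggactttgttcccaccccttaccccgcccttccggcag
Mvd, chr8:122443423-122443542, minus strand: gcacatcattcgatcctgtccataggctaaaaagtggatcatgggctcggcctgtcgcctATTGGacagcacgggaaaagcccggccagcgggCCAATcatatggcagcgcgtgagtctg
Lss, chr10:76531483-76531602, plus strand: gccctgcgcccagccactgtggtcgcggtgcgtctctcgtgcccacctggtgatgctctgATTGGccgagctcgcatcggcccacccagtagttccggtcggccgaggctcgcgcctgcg
A CCAAT box lay in 73.08% of the 26 sterol promoters and in 37.41% of all 32851 promoters of that length. TCACNCCAC lay in 3.85% against 1.24%, and Hmgcs1 was the single sterol gene that held it. A match is a description of letters and was not tested as a site.

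Fatty acid, sphingolipid and galactolipid genes rose in part. Of 30 measured, 12 rose, none fell and the median change was 0.93. Ugt8a, which makes galactosylceramide, the hallmark lipid of myelin, read 12.06, 11.01 and 12.05 at P0 and 14.74, 14.75 and 14.54 at 1 W, a rise of 2.97 (SE 0.30, adjusted p = 0.00275). Its partner Fa2h, which hydroxylates the fatty acid of that lipid, rose by 1.88. The acyl-CoA and elongation enzymes Acss2 (2.38, with −0.11 on another probe), Acsl3 (1.97), Elovl7 (1.89), Elovl6 (1.75) and Elovl1 (1.33) rose, as did the desaturases Scd1 (1.76) and Scd2 (1.26).

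Acly, which supplies cytosolic acetyl-CoA, rose by 1.05. Fasn, the fatty acid synthase, read 16.08, 15.94 and 16.08 and then 16.74, 16.89 and 16.91, a difference of 0.81 (adjusted p = 0.00744) under the fold limit. Cers4, a ceramide synthase, rose by 1.68, while its relative Cers6 differed by −0.47 (adjusted p = 0.0398). The regulator Srebf1 differed by −0.05 (adjusted p = 0.833). Glycolysis genes were almost flat, with 1 of 20 called, the lactate exporter Slc16a3, which read 10.23, 11.29 and 11.09 at P0 and 8.56, 8.66 and 8.92 at 1 W and fell by 2.15 on the log2 scale (adjusted p = 0.00527). None of 48 cytosolic ribosomal protein genes was called, and their median was −0.14.

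Cell cycle genes were lower at 1 W, with differences from −1.33 to −0.22. All 49 measured were lower, 48 of them with no overlap between the ages, where 20.3% of all gene names were lower without overlap. At an adjusted p below 0.05 and any fold, 45 were lower, against 8.80% of all gene names. With the fold limit 19 fell and none rose, and the median change was −0.91, so many members lay just inside or just outside a 2-fold change. Foxm1, a transcription factor of mitosis, fell by 1.00 on the log2 scale (adjusted p = 0.00554), and Kif20a, a mitotic kinesin, lay just outside the fold limit (adjusted p = 0.00821). Kif20a was named after its values were seen.

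Cdc20, the activator of the anaphase-promoting complex, read 14.14, 14.27 and 14.21 at P0 and 12.72, 12.75 and 13.15 at 1 W, and fell by 1.33 (SE 0.15, adjusted p = 0.00371). Ccna2, cyclin A, read 12.59, 13.13 and 13.01 and then 11.36, 11.44 and 11.94, and fell by 1.33 (SE 0.22, adjusted p = 0.00969). The centromeric histone Cenpa fell by 1.23, the chromosomal passenger Cdca8 by 1.19, its partner Birc5 by 1.06 and cyclin D, Ccnd1, by 1.01. Mki67, the proliferation antigen, read 14.26, 14.73 and 14.71 and then 13.38, 13.44 and 14.08, a difference of −0.94 (SE 0.24, adjusted p = 0.0358), and the replication clamp Pcna differed by −0.48 (adjusted p = 0.0438). The 1 W replicate 3 array was the highest of the 1 W arrays for most members.

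In the older dorsal roots Mki67 averaged 11.7 at 3 W and 10.4 at 5 W. The count of 19 depends on single arrays. It was 3 without 1 W replicate 2, 4 without 1 W replicate 1, 9 without P0 replicate 3 and 28 without 1 W replicate 3. It was 8 with each array scaled to its 75th percentile, and 5 with either the slide or the scan batch as a block.

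Promoters of 39 of the 49 measured cell cycle genes were matched, and 3 are shown because their genes fell and they carry both elements typical of this group. Capitals mark CCAAT on either strand and TTTGAA on either strand (TTCAAA when reversed), the core of the cell cycle homology region.
Cdc20, chr4:118437344-118437463, minus strand: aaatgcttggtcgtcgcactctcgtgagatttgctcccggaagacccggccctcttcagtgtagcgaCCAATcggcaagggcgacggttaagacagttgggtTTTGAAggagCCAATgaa
Cdk1, chr10:69352913-69353032, minus strand: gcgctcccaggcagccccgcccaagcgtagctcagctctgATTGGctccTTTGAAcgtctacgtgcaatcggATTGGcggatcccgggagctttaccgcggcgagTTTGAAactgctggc
Ube2c, chr2:164769809-164769928, plus strand: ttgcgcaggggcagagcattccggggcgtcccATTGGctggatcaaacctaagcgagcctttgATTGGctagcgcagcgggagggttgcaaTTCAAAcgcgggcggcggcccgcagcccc
TTTGAA lay in 48.78% of the 41 cell cycle promoters and in 17.89% of all promoters, and in 7.69% of the sterol promoters. CCAAT lay in 80.49% of the cell cycle promoters. The E2F form TTTNGCGC lay in 12.2% of them, in no sterol promoter and in 1.38% of all. Cdk1, the mitotic kinase, fell by 1.08 and Ube2c, a ubiquitin-conjugating enzyme of mitosis, by 1.04.

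**Figure D2:**
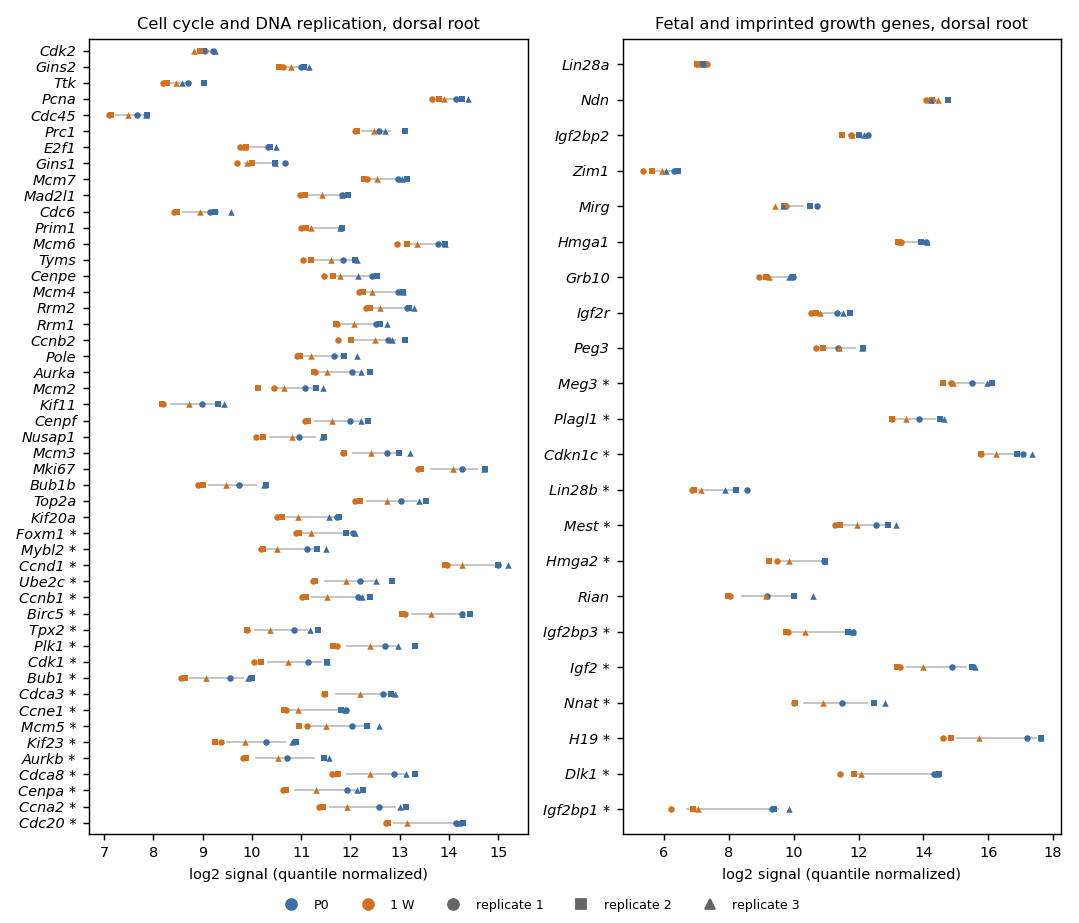
Log2 signal (horizontal axes) of cell cycle genes and of fetal and imprinted genes (1 row each) on each dorsal root array, blue at P0 and orange at 1 W, with the marker shape giving the replicate and an asterisk marking called genes. Cdc20 stood near 14.2 on the P0 arrays and at 12.72 to 13.15 at 1 W, and Igf2bp1 and Dlk1 fell further.

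Fetal and imprinted growth genes fell as well. All 22 measured were lower at 1 W, 12 fell, none rose and the median change was −1.17. Of the 22, 18 had no overlap, where 20.3% of all gene names were lower without overlap. Igf2bp1, a fetal RNA-binding protein that carries Igf2 messenger RNA, read 9.31, 9.38 and 9.86 at P0 and 6.22, 6.89 and 7.05 at 1 W, and fell by 2.80 on the log2 scale (SE 0.26, adjusted p = 0.00236). Dlk1, an imprinted Notch ligand relative, read 14.33, 14.49 and 14.42 and then 11.43, 11.86 and 12.09, and fell by 2.62 (SE 0.19, adjusted p = 0.00146). H19, the imprinted noncoding RNA beside Igf2, read 17.20, 17.63 and 17.64 and then 14.60, 14.85 and 15.70, and fell by 2.44 (SE 0.30, adjusted p = 0.00437).

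The imprinted growth factor Igf2 fell by 1.84, the membrane protein Nnat by 1.94, the cyclin-dependent kinase inhibitor Cdkn1c by 1.18 and the noncoding Meg3 by 1.08. Others that fell were Igf2bp3 at −1.81, the chromatin protein Hmga2 at −1.44, Mest at −1.32, the let-7 repressor Lin28b at −1.24 and Plagl1 at −1.16. Without 1 W replicate 2 the count was 8. Igf2, Dlk1 and H19 are also transcribed in fetal muscle and liver, whose markers were higher at P0, and the part of those tissues in these falls was not tested. In the Igf list 1 of 11 fell, the binding protein Igfbp3 by 1.08 (13.85, 13.76 and 13.60 to 12.54, 12.68 and 12.74), and the median was −0.72. The count was 2 without any 1 P0 array or without 1 W replicate 3. Igfbp1, also a transcript of liver, differed by −4.10 (adjusted p = 0.0504), and was above background on 1 of 3 1 W arrays. Igfbp2 differed by −1.40 (adjusted p = 0.0572), Igfbp6 by −0.62 (adjusted p = 0.0441) and Igfbp7 by 0.11.

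Desert hedgehog is the Schwann cell signal that patterns the nerve sheath. Of 14 measured genes of its pathway, 6 were higher and 8 lower at 1 W. Dhh read 15.49, 15.03 and 15.29 at P0 and 15.81, 15.95 and 15.72 at 1 W, a difference of 0.56 (adjusted p = 0.0498) that did not reach 2-fold. The transcription factors Gli2 (7.44, 7.74 and 7.60 to 5.90, 5.98 and 6.09) and Gli1 (12.26, 12.65 and 12.53 to 11.08, 11.10 and 11.24, a fall of 1.34) and the coreceptor Gas1 (a fall of 1.23) fell. The signal transducer Smo differed by 0.01. In all 3 of 14 fell, none rose and the median was −0.13. Without P0 replicate 2, 2 were called higher.

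**Figure D3:**
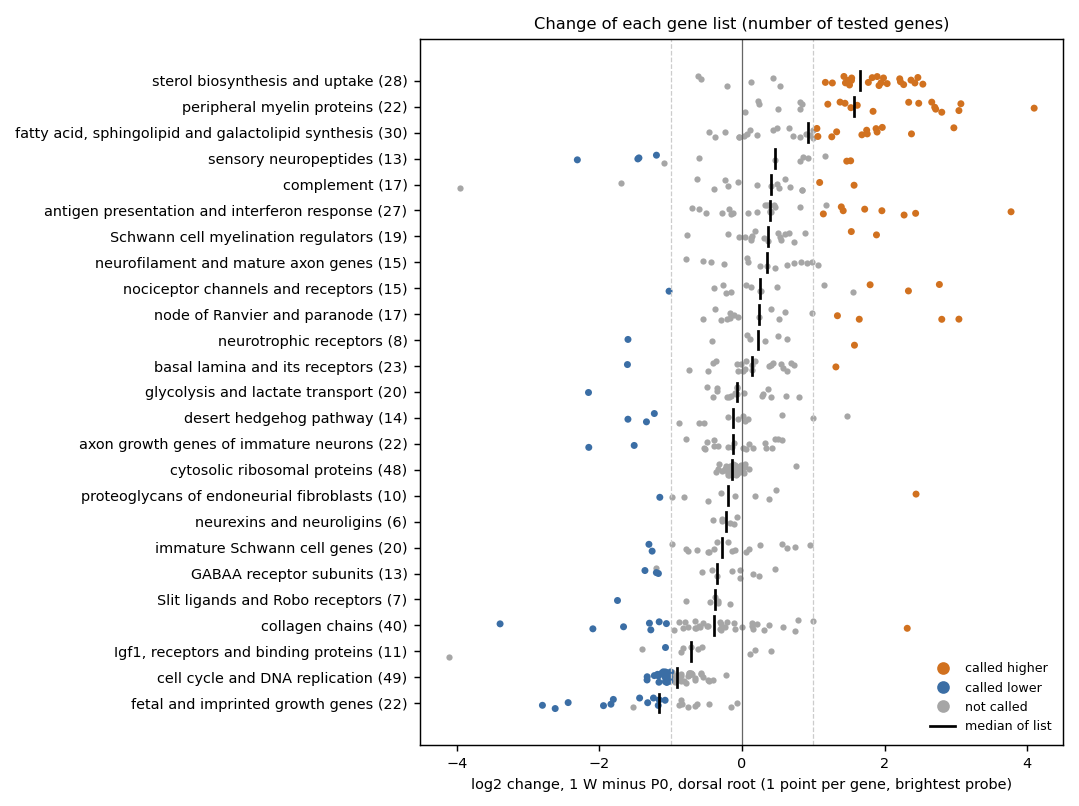
Change from P0 to 1 W in the dorsal root (log2, horizontal axis) with 1 point per measured gene, grouped by list, a black bar at each median and dashed lines at a 2-fold change. Medians were 1.57 for myelin proteins, 1.65 for sterol genes, −0.91 for cell cycle genes and −1.17 for fetal and imprinted genes.

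Collagen chains of the extracellular matrix were mostly lower at 1 W. Of 40 measured, 28 were lower, 20 of them with no overlap, and 12 were higher, 6 of them with no overlap. Of all gene names, 20.3% were lower without overlap. At an adjusted p below 0.05 and any fold, 14 were lower and 4 higher, against 8.80% of all gene names lower. With the fold limit 1 rose and 7 fell, and the median change was −0.39. Col15a1, a basement membrane collagen, read 7.52, 6.69 and 6.73 at P0 and 9.56, 9.48 and 8.85 at 1 W, a rise of 2.32 (adjusted p = 0.00457). The fallers were Col10a1 (−3.39), Col13a1 (−2.09), Col4a4 (−1.66), Col4a6 (−1.30), Col6a3 (−1.28), Col11a1 (−1.16) and Col9a1 (−1.06). Col10a1, Col11a1 and Col9a1 are cartilage collagens, and the mean of the cartilage and bone markers was 9.64 to 10.3 at P0 and 8.49 to 9.02 at 1 W, and 2 of 7 fell, Col9a1 and Ibsp. None of the 7 was called without P0 replicate 3 or without 1 W replicate 1, and 1 was without P0 replicate 2 or 1 W replicate 2. Their part in the collagen falls was not tested. The fibrillar chains of nerve connective tissue were not called, Col1a1 at −0.21, Col1a2 at −0.30 and Col3a1 at −0.29.

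In the basal lamina, the sheet around each Schwann cell unit, 1 of 23 rose and 1 fell. Utrn, the utrophin of the dystroglycan complex, rose by 1.32 (14.71, 14.24 and 14.75 to 15.91, 15.99 and 15.76), and the laminin chain Lama1 fell by 1.61 (12.96, 13.30 and 13.04 to 11.30, 11.34 and 11.84). The receptor subunit Itga6 differed by 0.69 (adjusted p = 0.0229). Among 10 fibroblast proteoglycans Ogn, osteoglycin, read 13.11, 12.73 and 12.93 and then 15.39, 15.63 and 15.07, a rise of 2.44 (SE 0.19, adjusted p = 0.00152), and Fmod fell by 1.15 (adjusted p = 0.0457). The Fmod call was lost without any 1 array other than 1 W replicate 3. Decorin, Dcn, differed by 0.38 with overlap. Of the fibroblast markers 1 of 8 fell, the tight junction claudin Cldn1 by 1.15, a call lost without 1 W replicate 1. Of the meningeal markers 1 of 7 fell, the factor Foxc1 by 1.04, a call lost without P0 replicate 3, 1 W replicate 1 or 1 W replicate 2.

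Slit ligands and their Robo receptors, which repel growing axons, included 1 of 7 that fell, and all 7 differences were below 0, with a median of −0.38. Slit3 read 8.43, 8.02 and 8.60 at P0 and 6.17, 6.75 and 6.86 at 1 W, and fell by 1.76 (SE 0.24, adjusted p = 0.0056). Robo1 differed by −0.79 (10.35, 10.57 and 10.91 to 9.64, 9.79 and 10.04, adjusted p = 0.0303), and another of its 3 probes fell 2.44-fold. Slit2 differed by −0.34 on its brightest probe (mm9 chr5:48696502-48696561, 11.52, 11.51 and 11.75 to 11.16, 11.44 and 11.17, adjusted p = 0.138). A second Slit2 probe (mm9 chr5:48673757-48673816) read 5.78, 6.16 and 6.42 and then 4.12, 4.51 and 3.92. That probe was called lower (adjusted p = 0.00363) and was above background on 1 of 3 1 W arrays. The endothelial Robo4 differed by −0.44 (adjusted p = 0.0937).

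GABAA receptor subunits, which form chloride channels gated by GABA, were called lower in 3 of 13 cases, with a median of −0.35. Gabrb2 read 9.31, 9.61 and 9.37 at P0 and 7.86, 7.97 and 8.38 at 1 W, and fell by 1.36 (SE 0.18, adjusted p = 0.00509). Gabra3 fell by 1.20 (9.02, 8.73 and 8.86 to 7.69, 7.20 and 8.11, adjusted p = 0.0175) and Gabrg3 by 1.17 (adjusted p = 0.0222). Gabra4, at −1.20, had overlapping arrays (9.19, 11.01 and 10.65 against 8.80, 8.50 and 9.95) and was not called. Without 1 W replicate 1 or 1 W replicate 2 the count was 1. Markers of spinal cord neurons were lower at 1 W as well, with a mean of 8.26 to 8.83 at P0 and 6.90 to 7.73 at 1 W. In that list 4 of 8 fell, the inhibitory transporters Slc6a5 (−2.42, above background on 1 of 3 1 W arrays) and Slc32a1 (−1.83), the GABA-synthesising Gad2 (−1.73) and the dorsal horn factor Lbx1 (−1.27). Whether the GABAA falls and these falls share a source was not tested.

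None of the 6 neurexins and neuroligins, adhesion molecules of the synapse, was called. Their median difference was −0.23. Nrxn2 differed by −0.28, Nrxn3 by −0.29, Nlgn1 by −0.12, Nlgn2 by −0.17 and Nlgn3 by −0.07. Another Nrxn3 probe differed by −0.99 (adjusted p = 0.0374), just under the fold limit, and 1 more by 0.19. Unc13c, a vesicle-priming protein, read 10.34, 10.54 and 10.86 and then 9.05, 8.76 and 9.34, and fell by 1.53 (SE 0.20, adjusted p = 0.0053). Its other probe differed by −1.27 (adjusted p = 0.0798).

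Of 22 genes of the growing axon 2 fell and none rose. Dcx, doublecortin, a microtubule protein of immature neurons, read 9.96, 10.29 and 9.42 at P0 and 7.48, 7.46 and 8.28 at 1 W, and fell by 2.15 (SE 0.31, adjusted p = 0.00642). Sox11, a factor of young neurons, fell by 1.51 (9.85, 9.98 and 9.73 to 8.21, 8.24 and 8.57), with all 3 probes called. The netrin receptor Dcc differed by −0.33 and the tubulin Tuba1a by 0.47, and the median was −0.13. None of 15 neurofilament and mature axon genes was called on its brightest probe, and their median was 0.35. Without P0 replicate 2, 5 of the 15 were called higher. On other probes Snap25 (−1.27, adjusted p = 0.0112) and Syt1 (−1.23, adjusted p = 0.0458) were called lower. A further Snap25 probe differed by 0.74 without a call. Nefl, the light neurofilament, read 14.75, 16.15 and 14.73 and then 16.06, 16.35 and 16.17 (difference 0.98, adjusted p = 0.117), with P0 replicate 2 inside the 1 W range.

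That array was also the highest P0 array for 8 of 13 sensory neuron markers. Their mean was 9.73, 10.3 and 10.9 on the P0 arrays, and the 1 W arrays lay within that range. Of the 13, 1 rose, Mrgprd, and without P0 replicate 2 the count was 4, while it was 0 without any 1 of the other arrays. Among neuropeptides 2 of 13 rose and 4 fell. Calcb, a calcitonin gene-related peptide of pain fibres, read 8.18, 9.35 and 7.71 at P0 and 9.77, 9.81 and 10.23 at 1 W, a rise of 1.52 (adjusted p = 0.0417). Nppb, the peptide of itch neurons, rose by 1.47 and was above background on 2 of 3 P0 arrays.

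Npy, neuropeptide Y, read 10.21, 9.35 and 9.56 and then 7.73, 6.57 and 7.89, and fell by 2.31 (SE 0.40, adjusted p = 0.0111). Cck fell by 1.46, Uts2b by 1.45 and Nts, neurotensin, by 1.20. Calca (1.16, adjusted p = 0.112), Tac1 (0.93, adjusted p = 0.156) and Gal (−0.60) were not called, and the list median was 0.46. Without 1 W replicate 1 or 1 W replicate 2, 1 neuropeptide was called lower. Without P0 replicate 2, 5 were called higher, and without any 1 of the other arrays, 1 was. With all 24 arrays or the 12 AN arrays fitted together, 0 were called higher and 1 lower.

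Receptors of pain and itch neurons rose at 3 of 15 genes and 1 fell, with a median of 0.25. Mrgpra3, the itch receptor for chloroquine, read 5.16, 6.18 and 4.21 at P0 and 7.29, 7.89 and 8.67 at 1 W, a rise of 2.77 (SE 0.55, adjusted p = 0.0172). Trpa1, an irritant-gated channel, read 5.70, 5.32 and 5.01 and then 7.73, 8.26 and 7.04, a rise of 2.33 (adjusted p = 0.00642). Both were above background on 2 of 3 P0 arrays. Mrgprd, a receptor of nonpeptidergic fibres, rose by 1.80 (8.37, 10.15 and 8.25 to 10.37, 10.94 and 10.85, adjusted p = 0.0487). Of the 15, 6 were called higher without P0 replicate 2 and 1 without 1 W replicate 2. With all 24 arrays fitted together 1 was called higher, and with the 12 AN arrays 0 were.

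The sodium channels of these neurons were not called, Scn10a at 0.25 and Scn11a at 0.50 on their brightest probes, and another Scn10a probe was called lower (−1.21, adjusted p = 0.0487). The gabapentinoid-binding subunit Cacna2d2 fell by 1.02, a call lost without P0 replicate 2, 1 W replicate 1 or 1 W replicate 2. Of 8 neurotrophic receptors Gfra1, which binds GDNF, rose by 1.58 (7.53, 7.43 and 7.19 to 9.02, 9.14 and 8.72), and Gfra3, which binds artemin, fell (12.43, 12.84 and 12.16 to 10.60, 11.17 and 10.86, adjusted p = 0.00646). Gfra2 differed by 0.32 and Ntrk3 by −0.42. The 5 measured motor neuron markers were not called.

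Genes of antigen presentation by class II molecules rose. Of 27 genes of antigen presentation and interferon response 8 rose, none fell and the median was 0.40. H2-Aa, a class II chain, was well above background on no P0 array and on all 1 W arrays (6.54, 7.20 and 6.35), at least 4.00-fold higher. H2-Eb1 read 8.11, 8.00 and 8.04 at P0 and 10.51, 10.80 and 10.13 at 1 W, a rise of 2.43 (SE 0.19, adjusted p = 0.00153). The invariant chain Cd74 rose by 2.27 (6.53, 6.37 and 6.54 to 8.75, 9.16 and 8.36), and the class II activator Ciita by 1.96 with 1 of 3 P0 arrays above background. The peptide loading partners were among the changes of largest size: H2-DMb1 read 7.76, 6.58 and 6.98 and then 12.51, 12.66 and 11.57, a rise of 5.14 (SE 0.39, adjusted p = 0.00152), and H2-DMa read 8.31, 7.50 and 7.67 and then 11.52, 11.78 and 10.98. In the list 5 genes, not 8, were called without P0 replicate 3 or without 1 W replicate 2, and without 1 W replicate 3, 3 were called lower.

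Class I genes moved less, H2-K1 by 0.81 (adjusted p = 0.0101), B2m by 0.38 and Tapbp by 0.32. Isg15, named after its values were seen, read 11.96, 12.28 and 11.30 at P0 and 11.24, 11.49 and 14 at 1 W, with 1 W replicate 3 apart from the others (difference 0.40, adjusted p = 0.724). Of 17 complement genes 2 rose, the receptor C3ar1 by 1.57, above background on 2 of 3 P0 arrays, and the decay regulator Cd55 by 1.09. Without any 1 array other than P0 replicate 2, 1 complement gene was called higher, and without P0 replicate 1, 1 was also called lower. Clu differed by 0.84 (adjusted p = 0.0342) and C1qc by 0.41, and the median was 0.41. The adipsin Cfd stood at 14.69 on P0 replicate 3, above the other P0 arrays.

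Macrophage markers were higher at 1 W, with a mean of at most 10.97 at P0 and at least 11.31 at 1 W, and 3 of 8 rose. Cx3cr1, the fractalkine receptor, read 10.79, 10.88 and 10.52 at P0 and 12.79, 12.85 and 12.49 at 1 W, a rise of 1.98 (SE 0.16, adjusted p = 0.00167). Adgre1, the F4/80 antigen, rose by 1.59 and Aif1 by 1.27, while Csf1r differed by 0.67 (adjusted p = 0.0131). Lyve1, found on tissue-resident macrophages and lymphatic vessels, fell by 1.58 (8.81, 9.57 and 9.57 to 7.13, 7.64 and 8.44), a call lost without P0 replicate 2, P0 replicate 3, 1 W replicate 1 or 1 W replicate 2. None of the 8 endothelial markers was called, though Cdh5 (−0.99, adjusted p = 0.00407) and Emcn (−0.94) lay just under the limit. Without P0 replicate 1, 3 were called lower, and without P0 replicate 2, 1 W replicate 1 or 1 W replicate 3, 1 was. None of the 7 pericyte and smooth muscle and none of the 7 erythroid markers was called.

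**Figure D4:**
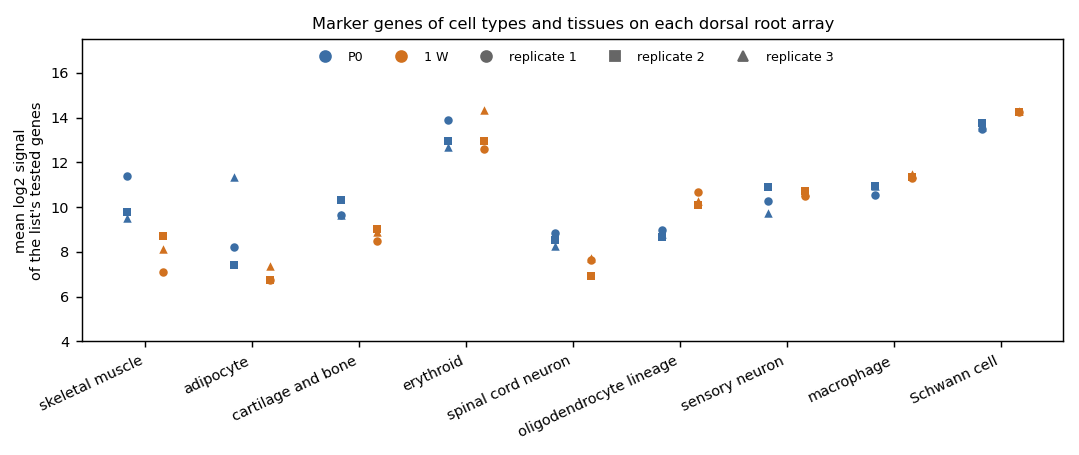
Mean log2 signal of each marker list (vertical axis) on the 3 P0 (blue) and 3 1 W (orange) dorsal root arrays, with 1 point per array. Schwann cell markers moved from 13.5 to 13.8 up to 14.2 to 14.3, macrophage markers were higher at 1 W, and skeletal muscle and adipocyte markers were higher and widely spread at P0.

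Among probes measured on all 6 arrays, 7 of the 10 largest falls were in genes of skeletal muscle. Acta1, skeletal actin, read 14.46, 14.03 and 13.64 at P0 and 8.96, 10.23 and 10.43 at 1 W, and fell by 4.17 (SE 0.41, adjusted p = 0.00275, 18.0-fold). Sln (−4.14), Ckm (−3.73), Mylpf (−3.53), Cav3 (−3.42), Myoz1 (−3.41) and Myl3 (−3.31) fell too. Of 12 muscle markers 8 fell, and 1 was higher at 1 W, by 3.72 without a call. The mean of the 12 was 9.53 to 11.4 at P0 and 7.12 to 8.71 at 1 W. Csrp3 was at least 17.6-fold, Abra at least 4.27-fold and Myog at least 4.22-fold lower, each measured on all P0 arrays and above background on no 1 W array. In the older roots Acta1 averaged 13.2 at 3 W and 10.5 at 5 W.

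The other large falls were Hif3a, a hypoxia-inducible factor (11.32, 12.39 and 11.21 to 7.89, 8.06 and 8.29, a fall of 3.56 and an average of 11.6 at 5 W), the gluconeogenic Pck1 (a fall of 3.42, SE 0.94, adjusted p = 0.046) and Prss56. Alb, serum albumin, read 9.28, 14.10 and 7.50 at P0 and was above background on no 1 W array, at least 56.3-fold lower. No adipocyte marker was called, their median was −2.63, and P0 replicate 3 stood apart. Adipoq, named after its values were seen, read 6.59, 5.62 and 11.83 at P0 and 5.12 to 5.53 at 1 W.

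The 10 largest rises under the same condition include Drp2, H2-DMb1 and H2-DMa, and all 10 averaged higher still at 5 W. Fam178b read 10.91, 9.65 and 10.36 at P0 and 15.66, 15.59 and 14.92 at 1 W, a rise of 5.08 (SE 0.35, adjusted p = 0.00139, 33.9-fold), and averaged 17.6 at 5 W. The protease inhibitor Spint1 rose by 4.22, the ganglioside sialyltransferase St8sia5 by 4.07, the potassium channel Kcnk1 by 3.98, Ccdc37 by 3.70 and Ddn, dendrin, by 3.55. Cntf, ciliary neurotrophic factor, a product of myelinating Schwann cells, read 9.90, 9.13 and 9.78 and then 13.34, 13.59 and 12.54, a rise of 3.55 (SE 0.32, adjusted p = 0.00228), and averaged 16.9 at 5 W. Fgf4, a fibroblast growth factor, and Ppp1r14d, a phosphatase inhibitor, were above background on no P0 array and at least 12-fold and 3.76-fold higher.

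Oligodendrocyte genes were also among the risers. Mobp, a myelin protein of the central nervous system, read 4.07, 2.49 and 4.90 at P0, where no array was well above background, and 11.98, 10.79 and 10.76 at 1 W, at least 89.1-fold higher. Gpr17, a receptor of oligodendrocyte precursors, rose by 3.12 (8.99, 9.16 and 8.44 to 12.49, 11.77 and 11.70), and Nkx2-2, a factor of that lineage, by 2.12. These were 3 of 9 measured markers, of which 6 were higher and 3 lower at 1 W. The mean of the 9 was 8.64 to 8.96 at P0 and at least 10.11 at 1 W, while their sum on the linear scale moved by −0.26 in log2. Mbp, Mag, Cnp, Mal, Gjb1 and Nfasc of the myelin list and Ugt8a and Fa2h of the lipid list are also made by oligodendrocytes, and how much of their rise lies in each cell type was not tested. Drp2, Ncmap and Prx belong to peripheral myelin. Of the astrocyte markers 1 of 8 rose, the water channel Aqp4 by 1.30, and 1 fell, the glutamate transporter Slc1a3 by 1.01, a call lost without P0 replicate 1, 1 W replicate 2 or 1 W replicate 3.

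The ventral root went through the same week on 6 other arrays, and the difference between the 2 changes was tested in a fit of all 12. Of 34273 probes 679, or 1.98%, differed, with 631 where the dorsal root change was the higher and 48 where it was the lower. By gene name 2.25% were called. The probe count ran from 114 without EN P0 replicate 3 to 981 without AN P0 replicate 2, and it was 22, with 7 higher and 15 lower, when all 24 arrays shared 1 estimate of the spread. None of the 22 myelin, 28 sterol, 30 fatty acid, 49 cell cycle or 22 fetal and imprinted genes was called in this test, and a miss does not show that the roots changed alike. The median changes in the ventral root were 1.06, 1.42, 0.83, −0.65 and −1.25 in the same order.

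Most of the genes with a higher dorsal change named here are neuronal. Avil, advillin, an actin-binding protein of sensory neurons, read 12.93, 14.27 and 12.62 at P0 and 13.49, 13.88 and 13.71 at 1 W in the dorsal root, with overlap. In the ventral root it read 12.37, 12.83 and 13.18 and then 7.55, 8.24 and 9.28. The dorsal change minus the ventral change was 4.85 (SE 0.67, adjusted p = 0.0127). Calca differed by 4.85, Isl2, which stands in the motor neuron list, by 4.77, Tac1 by 4.74 and the sensory intermediate filament Prph by 4.57. In these 5 genes the dorsal root changed by 0.25 to 1.16 with no call, while the ventral root changed by −3.68 to −4.52. Called in the same test were 7 of 13 sensory neuron markers, 7 of 15 neurofilament and mature axon genes, 6 of 15 nociceptor genes, 6 of 22 axon growth genes and 5 of 13 neuropeptides.

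The opposite difference was smaller. Slit2 read 11.52, 11.51 and 11.75 and then 11.16, 11.44 and 11.17 in the dorsal root, and 10.41, 10.05 and 10.41 and then 11.74, 11.94 and 11.38 in the ventral root, a difference of −1.74 (SE 0.24, adjusted p = 0.0121). The aldehyde dehydrogenases Aldh1a1 (−1.87) and Aldh1a7 (−1.71), Vwa5b2 (−1.68) and the thyroid hormone transporter Slco1c1 (−1.59) differed in the same direction. Vwa5b2 was lower in the dorsal root (adjusted p = 0.0138) and higher in the ventral root (adjusted p = 0.0109). The endothelial markers Esam, Tek and Tie1 were called here too, at −1.18, −1.21 and −1.04. The genes with the largest root differences were picked from probes well above background on all 12 arrays. Their ventral root signal at P0 and at 1 W was thus a condition of the naming.

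**Figure D5:**
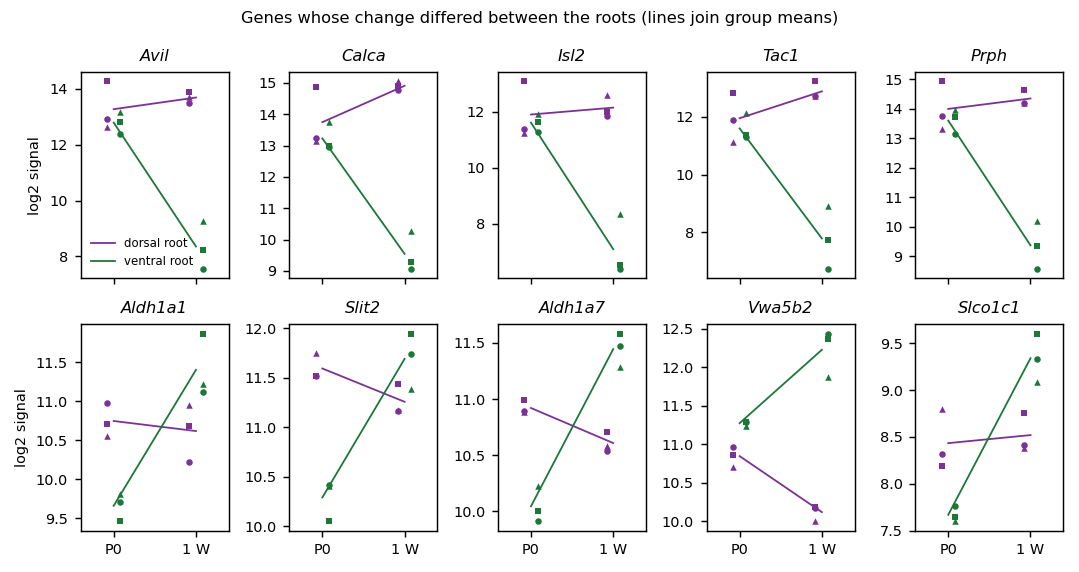
Log2 signal at P0 and 1 W of the 10 genes named for a difference between the roots, purple for the dorsal and green for the ventral root, with 1 point per array and vertical axes that differ between panels. For Avil the dorsal arrays stayed between 12.62 and 14.27, while the ventral arrays went from 12.37 to 13.18 down to 7.55 to 9.28.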

How the data were processed

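RNA of dorsal (AN) and ventral (EN) roots was labelled with Cy3 and hybridised to 1-colour Agilent arrays, and the spots were read with Agilent Feature Extraction 10.7.1.1. The authors quantile-normalised the signals over the 24 arrays, and their deposited log2 values were used here. The deposited scanner intensity values and background marks of the same arrays gave the filter and the alternatives. Gene names are those of the array design, and 41700 probes carry a symbol of the GRCm38.p6 gene table. Of the gene probes, 300 have several spots and were read as 1 value, as in the authors' table. Probe positions are on mm9.

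A linear model of the 6 dorsal root arrays with moderated variance was fitted in limma 3.58.1 (R 4.3.3) to probes well above background on all 3 arrays of either age, with Benjamini-Hochberg adjustment over all of them, and a fit of 12 arrays tested the difference between the roots. The scripts were tested on simulated data. With 3 arrays per age, 4 residual degrees of freedom remained, and the median standard error was 0.178 log2 units. Slide 1 holds replicate 1 of both ages, slide 2 holds 1 W replicate 2, and slide 3 the other 3 arrays. By scan date, the arrays of slides 1 and 2 form scan batch 1 and those of slide 3 form scan batch 2. Batch 1 thus holds P0 replicate 1 and 1 W replicates 1 and 2, and batch 2 holds P0 replicates 2 and 3 and 1 W replicate 3. A fold for a gene above background on no array of an age is a bound set by the lowest signal well above background. The number of arrays limits precision.

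Named genes are the 10 largest rises and falls, the 5 largest of those at background at one age, up to 4 of the brightest and up to 4 of the largest called changes in each direction of 25 gene lists and 21 marker lists, the genes the study discusses for these fibres, and the 5 largest root differences each way. Other names given beside a list's count were chosen after their values were seen. The members and lists were chosen with earlier results of these data known. A few members of the lists are counted but not reported by name here.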

Additional observations from a re-analysis of the deposited data

Results flagged for a closer look

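For some probes the change from P0 to 1 W differed between the roots. The test of the difference between the changes called 679 of 34273 probes, or 1.98%. It called 22 (7 higher, 15 lower) when all 24 arrays were fitted together, and 114 to 981 with 1 array left out. The dorsal root change was higher for Avil by 4.85 (adjusted p = 0.0127), Calca by 4.85 (adjusted p = 0.0121), Isl2 by 4.77 (adjusted p = 0.0173), Tac1 by 4.74 (adjusted p = 0.0155) and Prph by 4.57 (adjusted p = 0.0134). It was lower for Aldh1a1 at −1.87 (adjusted p = 0.0193), Slit2 at −1.74 (adjusted p = 0.0121), Aldh1a7 at −1.71 (adjusted p = 0.00512), Vwa5b2 at −1.68 (adjusted p = 0.0107) and Slco1c1 at −1.59 (adjusted p = 0.0163).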

How the results depend on the processing

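Dorsal root calls (3006) numbered 1599 after normexp background correction, 1925 with 1 probe per gene and 6956 at any fold, and 1873 to 3207 with 1 array left out, lowest without 1 W replicate 2. A 75th percentile scaling gave 3074 (1577 higher, 1497 lower), the slide as a block 2117, which in effect drops 1 W replicate 2, and the scan batch as a block, chosen after seeing the data, 2891. Within slide 1 and slide 3, 2434 and 2440 of the calls exceeded 2-fold in the same direction. Same-numbered arrays of the 2 ages had deviations that correlated at 0.351, −0.0966 and 0.193. Differently numbered pairs ran from −0.439 (P0 replicate 1 with 1 W replicate 3) to 0.276 (P0 replicate 2 with 1 W replicate 3). Replicate 1 of both ages shares slide 1 and scan batch 1, replicate 3 of both ages shares slide 3 and scan batch 2, and no other link is given. A replicate block gave 3046 calls, or 800 for the difference between the roots. That difference (679) gave 22 calls (7 higher, 15 lower) when all 24 arrays were fitted together, 242 without the filter, 398 with probes above background on all arrays, 1529 without adjustment, and 114 to 981 with 1 array left out, lowest without EN P0 replicate 3, and 152 to 423 without AN P0 replicate 1 or 3, any AN 1 W array, EN P0 replicate 2 or EN 1 W replicate 2. Of 135 called named probes, 80 kept the call in all 16 alternatives, 55 lost it in at least 1 and none reversed. Of 139 not called, 23 were called in at least 1. Read from another probe, Scn10a gave −1.21, Ptprc 1.02, Acss2 −0.11, Dct 1.65 and Nrxn3 0.19, against the sign of the brightest probe. Summed on the linear scale, marker levels moved by −0.26 for the oligodendrocyte lineage, −0.33 for lymphocytes and 0.70 for the boundary cap, opposite to the mean of logs. The causes were not tested. Signals below log2 3.71 to 5.87, the lowest spot well above background on each array, carry no order.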

Other observations

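Granule genes of eosinophils were higher at 1 W in the dorsal root. These genes, and the Mrgpra, Fgf and liver genes below, were chosen after their values were seen. Prg2, the major basic protein, read 5.67, 6.17 and 6.08 at P0 and 10.14, 8.80 and 10.52 at 1 W, a rise of 3.84 (SE 0.43, adjusted p = 0.00351). Epx, eosinophil peroxidase, was above background on no P0 array and read 6.58, 5.22 and 7.30 at 1 W, at least 3.18-fold higher. The granule ribonucleases Ear1, Ear2, Ear10 and Ear12 rose by 3.52, 3.93, 3.01 and 3.84, and Prg3 was at least 2.81-fold higher. At P0 Ear12 was above background on 1 of 3 arrays, and Prg2, Ear1, Ear2 and Ear10 on 2 of 3. Array by array, 1 W replicate 2 was the lowest of the 1 W arrays for all 7, and the Ear genes are close relatives whose probes may share transcripts. Of the neutrophil markers 2 of 7 rose, the peroxidase Mpo by 2.53 (adjusted p = 0.0029) and Camp by 1.52. Nkg7, of cytotoxic lymphocytes, rose by 2.01 (1 of 3 P0 arrays above background) and Cma1, a mast cell chymase, fell by 1.76 (adjusted p = 0.0492), and each call was lost on leaving out any of at least 4 of the 6 arrays.

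Further itch receptors rose beside Mrgpra3, namely Mrgpra2a by 1.87, Mrgpra2b by 2.12 and Mrgpra6 by 2.14, above background on 2, 2 and 1 of 3 P0 arrays, and probes of this gene family may share transcripts. Growth factors rose beside Cntf, with Fgf1 at 2.30 (12.12, 12.92 and 12.04 to 14.70, 14.85 and 14.41, all 3 probes) and Fgf7 at 2.73. Melanocyte genes rose at 2 of 5 markers, the melanosome protein Pmel (a rise of 2.02) and the factor Mitf (1.74, all 4 probes). Of 10 immediate early genes 2 rose, Fosb by 2.21 and Arc by 1.85, both lost without 1 W replicate 1 or 1 W replicate 2, and Fos read 10.74, 9.96 and 9.88 at P0 and 12.92, 13.71 and 10.18 at 1 W without a call. Plasma protein transcripts of liver were highest on P0 replicate 2, where Ahsg read 14.28 and Afp read 13.15 against 8.46 and 7.55.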
